A study of Bos taurus with 14 samples.

Results

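NR1D1 (ENSBTAG00000012178) encodes the nuclear receptor also called REV-ERB alpha, a transcriptional repressor of the circadian clock. It is 1 of 24616 genes in the count table, and it was chosen by its measured values, since it belongs to a list that the study selected on these same libraries for a difference between sPIF and Control explants. Its sPIF against Control values are therefore given as a description with no test. Lane, progesterone group and the spread between cows within a treatment were not what that choice compared. The choice can still bear on that spread, which holds part of the within-cow differences. The spread of the within-cow difference entered the choice directly, because the study's test was paired by cow.

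The clock proteins CLOCK and BMAL1 switch on NR1D1, and the NR1D1 protein in turn represses the gene for BMAL1, which closes an auxiliary loop of the clock. The receptor binds heme, lacks the helix by which other nuclear receptors recruit coactivators, and silences its targets through the corepressor NCoR and the histone deacetylase HDAC3. Its transcript rises and falls strongly over the day in most tissues, and cells of the uterus carry a clock of this kind.

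The study cultured endometrial explants of 7 heifers slaughtered at an abattoir. They were taken between the caruncles of the uterine horn beside an ovary of stage IV, that is, with a regressing corpus luteum. From each animal, called a cow here, RNA was sequenced from 1 explant given 100 nM of sPIF, the synthetic form of a peptide that embryos secrete, preimplantation factor, and from 1 Control explant, with DMSO added to the Control wells because the peptide was dissolved in it. Both were kept for 30 h with the medium and treatment renewed once, and 14 libraries were made from total RNA. Each explant was a whole piece of tissue, so that fewer cells of a type and less NR1D1 RNA per cell cannot be told apart. The sources used here give no time of day for the collection of the tissue or the end of the culture.

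The libraries of cows 1 to 4 ran on lane 1. Those of cows 5 to 7 ran on lane 2 in 2 sequencing runs, whose counts were added. Serum progesterone was high in cows 2, 3, 4 and 5 and low in cows 1, 6 and 7. Thus 3 of 4 high cows were on lane 1 and 2 of 3 low cows on lane 2. Some samples had more progesterone than expected, which the paper reads as a sign of the luteal phase. The paper gives lane and progesterone group, and neither varies within a cow. Total counts ranged from 15885642 to 28625724 per library, with a median of 18886976.

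NR1D1 was counted 207 to 1477 times per library, and 9717 times in all. It had at least 10 counts in every library and was 1 of 13233 genes tested. Values are given as CPM, that is, counts divided by library size after TMM normalization, with every library brought to one size, and the mean over the 14 libraries was 34.9 CPM. Of the genes tested, 59.7% had a lower mean, on a scale that is not corrected for gene length. Counting error alone gave an SD of 0.038 to 0.10 on the log2 scale per library. In a RefSeq gene table for the ARS-UCD2.0 assembly, NR1D1 overlaps its neighbour THRA, the thyroid hormone receptor alpha gene on the opposite strand. The library kit does not mark strand and the strand setting of the counting is not given in the sources used here, so reads of both genes in the overlap cannot be told apart.

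In the Control explants of lane 1, NR1D1 measured 16.2 CPM in cow 1, 16.0 in cow 2, 29.8 in cow 3 and 44.9 in cow 4. In the Control explants of lane 2 it measured 81.8 CPM in cow 5, 56.2 in cow 6 and 74.5 in cow 7. Every Control value of lane 2 lay above every Control value of lane 1, a pattern that 15.8% of the genes tested shared. In the sPIF explants of lane 1, NR1D1 measured 11.0 CPM in cow 1, 12.3 in cow 2, 14.7 in cow 3 and 26.9 in cow 4. In the sPIF explants of lane 2 it measured 28.6 CPM in cow 5, 21.5 in cow 6 and 53.8 in cow 7. Here the lanes overlapped, since cow 4 lay above cow 6.

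**Figure D1:**
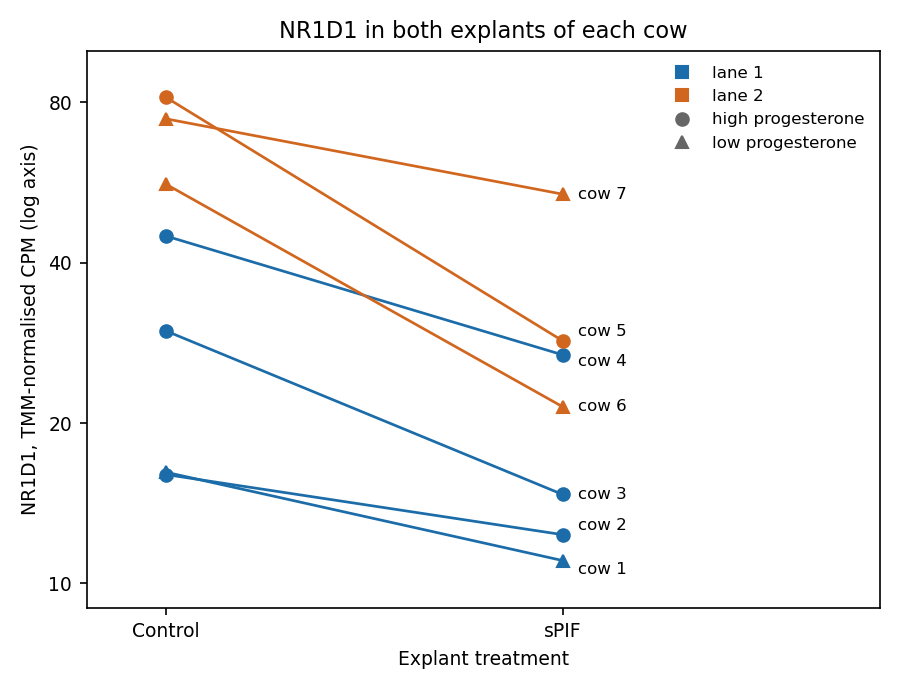
NR1D1 in TMM-normalised CPM, on a log axis, in the Control and sPIF explants of 7 cows. Each line joins both explants of 1 cow, colour marks the lane and marker shape the progesterone group. The sPIF value is the lower one in 7 of 7 cows, and the 3 Control values of lane 2 (56.2 to 81.8) stand above the 4 of lane 1 (16.0 to 44.9).

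From highest to lowest, the Control explants were ordered cow 5, 7, 6, 4, 3, 1 and 2. The 95% Poisson intervals of the counts overlapped between cow 5 and cow 7 and between cow 1 and cow 2, and between no other neighbours in this order. The sPIF explants were ordered cow 7, 5, 4, 6, 3, 2 and 1, and the intervals overlapped between cow 5 and cow 4, between cow 3 and cow 2, and between cow 2 and cow 1. These intervals cover counting error only, and with 1 explant per cow and treatment the spread between explants of 1 cow is unknown. The highest Control value was 5.11 times the lowest, and the highest sPIF value 4.87 times the lowest.

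Averaged over cows, NR1D1 stood at 45.6 ± 26.6 CPM (SD, n = 7) in Control and 24.1 ± 14.8 CPM (SD, n = 7) in sPIF explants. With sPIF it was lower in CPM in 7 of 7 cows, also when the counts were divided by library totals without TMM. Of all genes tested, 1.6% were lower in 7 of 7 cows and 1.33% higher in 7 of 7, and nothing is read from this because the contrast chose the gene. The raw count was lower in 6 of 7 cows. In cow 7 it was 1205 in Control and 1235 in the deeper sPIF library, which had 25022505 total counts against 17379146.

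Within cows, NR1D1 in the sPIF explant was 68.3% of Control in cow 1, 77.1% in cow 2, 49.3% in cow 3 and 59.8% in cow 4. On lane 2 it was 34.9% in cow 5, 38.2% in cow 6 and 72.2% in cow 7. Cows 2 and 7 thus had the smallest decreases and cows 5 and 6 the largest of the 7, and lane 2 held cows of both kinds. As log2 differences, sPIF minus Control, these ran from -1.51 in cow 5 to -0.37 in cow 2, with a median of -0.74 and a mean of -0.86 ± 0.45 (SD, n = 7).

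The edgeR fit across all genes, with cow as a block, gave a log2 fold change of -0.87 (standard error 0.15), and DESeq2 gave -0.87 (standard error 0.16). By size of the log2 fold change in either direction NR1D1 ranked 42 of 13233, and 26 genes had a more negative one. On lane 1 alone the value was -0.67, and on lane 2 alone -1.12. In this contrast edgeR's quasi-likelihood test called 0 genes (0% of those tested) at a Benjamini-Hochberg adjusted p below 0.1, with 1061 at an unadjusted p under 0.05, and DESeq2 called 100. No p is given for NR1D1 here.

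Both explants of cow 3 differed more from each other than those of other cows across the transcriptome. The SD over genes of the log2 difference was 0.76 in cow 3 and 0.35 to 0.51 in the remaining cows. NR1D1 itself was 1.01 lower with sPIF in cow 3 (log2 difference -1.01), inside the range of the cows. Without cow 3 its log2 fold change was -0.85.

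NR1D1 was higher on lane 2 by edgeR's test across all genes, while the exact test given below could not have passed 0.1 after adjustment. Averaged over both explants of a cow, its log2 CPM was 4.27 ± 0.64 (SD, n = 4) on lane 1 and 5.57 ± 0.43 (SD, n = 3) on lane 2. In CPM, Control explants had 26.7 ± 13.7 (SD, n = 4) on lane 1 and 70.8 ± 13.2 (SD, n = 3) on lane 2, and sPIF explants 16.2 ± 7.25 (SD, n = 4) and 34.6 ± 17.0 (SD, n = 3). Placed in order, lane 2 Control stood highest, followed by lane 2 sPIF, lane 1 Control and lane 1 sPIF. Lane 2 sPIF (21.5 to 53.8 CPM) overlapped with lane 1 Control (16.0 to 44.9 CPM), and lane 1 Control with lane 1 sPIF (11.0 to 26.9 CPM), while lane 2 Control (56.2 to 81.8 CPM) lay above lane 2 sPIF.

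With Control and sPIF counts added up for each cow, NR1D1 was higher on lane 2 by a log2 difference of 1.21 (standard error 0.34, 95% interval 0.43 to 1.99, edgeR adjusted p = 0.0307). The same fit called 39.6% of the genes tested, so that the call alone does not set NR1D1 apart. Its difference ranked 593 of 13233 by size in either direction, against a median absolute log2 difference of 0.37 over all genes. An exact two-sided permutation test on the cow means of log2 CPM gave p = 0.0571, where the smallest p that 35 ways of choosing the cows allow is 0.0286. After Benjamini-Hochberg adjustment over the 4 exact tests of NR1D1 this p was 0.229. With the other exact p values as they were, even the smallest possible p would not have passed 0.1 after adjustment. Nothing is therefore read from its not passing. Cow 4 of lane 1 and cow 6 of lane 2 had nearly equal means, both 5.12. No cow was on both lanes, so lane and cow cannot be told apart, and the sequencing of lane 2 in 2 runs belongs to the same difference.

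The lane difference of NR1D1 was larger in the Control explants alone, at a log2 difference of 1.39 (edgeR adjusted p = 0.0350, with 26.8% of all genes called), than in the sPIF explants alone, at 1.09 (edgeR adjusted p = 0.0673, with 37.1% called). Whether these 2 values differ is the same question as whether the sPIF effect differs between lanes. With progesterone group as a term, a choice made after the data were seen, the lane difference was 1.44 (edgeR adjusted p = 0.0412, with 31.6% called). Over all 15 alternatives the adjusted p for lane lay between 0.00259 and 0.0875.

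The within-cow difference of NR1D1 was -0.67 ± 0.28 (SD, n = 4) on lane 1 and -1.12 ± 0.57 (SD, n = 3) on lane 2 in log2 CPM. Cows 5 and 6 lay below every cow of lane 1, whereas cow 7, at -0.47, lay within the range of lane 1. The interaction of sPIF with lane was -0.45 (standard error 0.27, 95% interval -1.06 to 0.17, edgeR adjusted p = 0.555), a fit in which 0 genes (0%) were called, 1516 had an unadjusted p under 0.05 and DESeq2 called 175. The exact two-sided permutation test of the 7 differences gave p = 0.229, and 0.457 after adjustment over the 4 exact tests. The study's paired test favoured genes whose differences vary little between cows, so neither p can be read as showing that the lanes respond alike. Single cows moved the estimate, from -0.78 without cow 7 to -0.24 without cow 5. The interval holds both no difference and a decrease on lane 2 larger by 1 on the log2 scale, so the data leave the size of this difference undetermined.

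**Figure D2:**
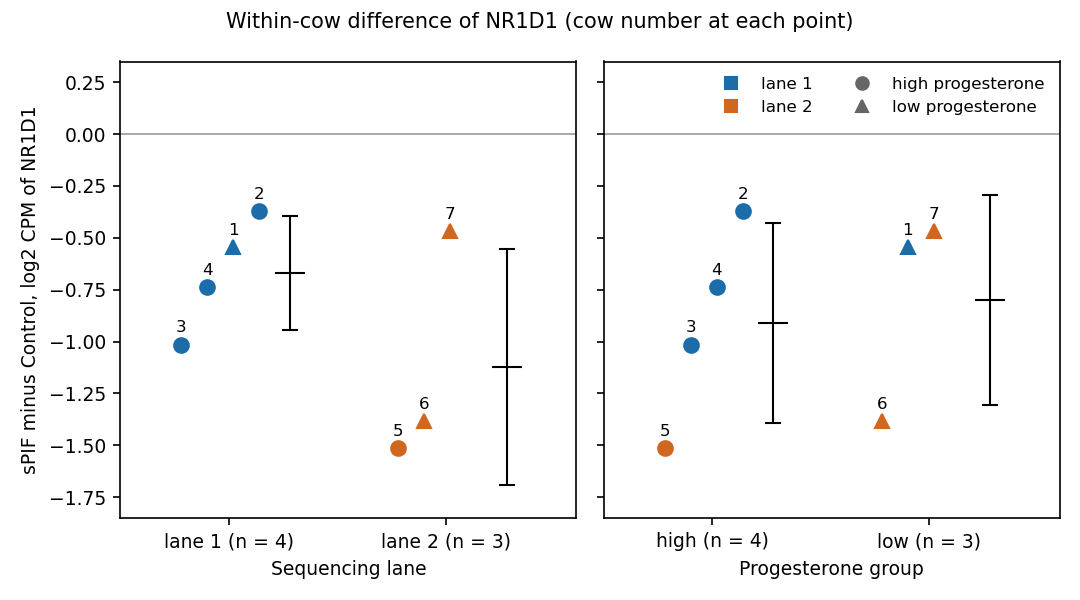
Within-cow difference of NR1D1, sPIF minus Control in log2 CPM, by sequencing lane (left) and by progesterone group (right). Each point is 1 cow with its number, colour marks the lane and shape the progesterone group, and the bars show mean ± SD. All 7 points lie below 0, and the ranges overlap in both panels, with lane 2 running from -1.51 to -0.47 and lane 1 from -1.01 to -0.37.

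By progesterone group, NR1D1 in Control explants stood at 43.1 ± 28.3 CPM (SD, n = 4) in high and 49.0 ± 29.8 CPM (SD, n = 3) in low cows. In sPIF explants it stood at 20.6 ± 8.28 CPM (SD, n = 4) in high and 28.8 ± 22.3 CPM (SD, n = 3) in low cows. The groups overlapped in both treatments, and the low group held both the lowest and the highest sPIF values, 11.0 CPM in cow 1 and 53.8 CPM in cow 7. With both explants summed per cow, the log2 difference of high against low was -0.31 (standard error 0.53, 95% interval -1.52 to 0.90, edgeR adjusted p = 0.891). In that fit 0 genes (0%) were called, 458 had an unadjusted p under 0.05, and DESeq2 called 24. The exact two-sided permutation test on cow means gave p = 0.771, also after adjustment.

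The direction of the progesterone difference was not stable. It turned to 0.24 without cow 7, and to 0.44 (standard error 0.40) with lane as a term, a choice made after the data were seen. On lane 1, Control explants of the 3 high cows had 30.2 ± 14.4 CPM of NR1D1 (SD, n = 3), against 16.2 in the low cow. On lane 2, the Control explant of the high cow had 81.8 CPM, against 65.3 ± 13.0 CPM (SD, n = 2) in the 2 low cows. Within each lane the high Control explants thus averaged above the low ones, whereas over both lanes they averaged below. In sPIF explants the lanes went opposite ways, with 18.0 ± 7.79 CPM (SD, n = 3) against 11.0 on lane 1 and 28.6 against 37.6 ± 22.9 CPM (SD, n = 2) on lane 2. On each lane 1 of the groups is a single cow. The fit with lane as a term, which draws on both lanes, gave an edgeR adjusted p of 1.00, in a range of 0.420 to 1.00 over the 15 alternatives.

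By progesterone group, the mean within-cow log2 difference of NR1D1 was -0.91 ± 0.48 (SD, n = 4) in high and -0.80 ± 0.51 (SD, n = 3) in low cows. The interaction was -0.12 (standard error 0.32, 95% interval -0.84 to 0.60, edgeR adjusted p = 1.00), with 0 genes (0%) called by edgeR, 187 at an unadjusted p under 0.05 and 0 called by DESeq2. The exact two-sided permutation test gave p = 0.771. The sign of this interaction turned without cow 5, to 0.09, and without cow 7, to 0.06. With the interaction of sPIF with lane as a term, a choice made after the data were seen, it was -0.38 (standard error 0.29). These tests too use the within-cow differences that entered the choice of the gene, and neither they nor an interval of this width show that the groups respond alike.

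NR1D1 varied more between cows than most genes of its level. Over the 7 Control explants the SD of its log2 CPM was 0.97, and 479 of the 500 genes with the nearest mean CPM (32.6 to 37.3) had a smaller one, which is 95.8%. The median SD of those 500 genes was 0.33, so that NR1D1 stood at 2.97 times the median. Over the 7 sPIF explants its SD was 0.80, above 469 of the 500 genes (93.8%) and 2.45 times their median of 0.33. The within-cow difference, whose spread bore on the choice of the gene, had an SD of 0.45, above 412 of the 500 genes (82.4%) and 1.75 times their median of 0.26. The 500 genes were taken by mean CPM alone, whereas NR1D1 came from the study's list. Some genes of that list, at other levels, had a larger Control SD, as SERPINA1 (1.55), LCN2 (1.48), CD83 (1.26) and AMIGO3 (0.99). Others had a smaller one, among them NFKBIE (0.65), ADA (0.56) and TSPAN5 (0.47). A wide spread is thus not particular to NR1D1 within the list.

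With the mean of each lane removed, the SD of NR1D1 in Control explants was 0.59, above 91.4% of the 500 genes. In sPIF explants it was 0.61 within lanes, above 93.2%, and for the within-cow difference 0.42, above 81.6%. Without cow 7, the SD in sPIF explants was 0.58, above 86.2% of the genes. Without cow 3, the SD was 1.05 in Control explants, 0.84 in sPIF explants and 0.49 for the within-cow difference, the last above 91.0% of the genes. Without cow 2 the SD of the within-cow difference was 0.44, above 77.2%. The rank among similar genes is a description and carries no test, and the choice of the gene can bear on it in each treatment too.

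**Figure D3:**
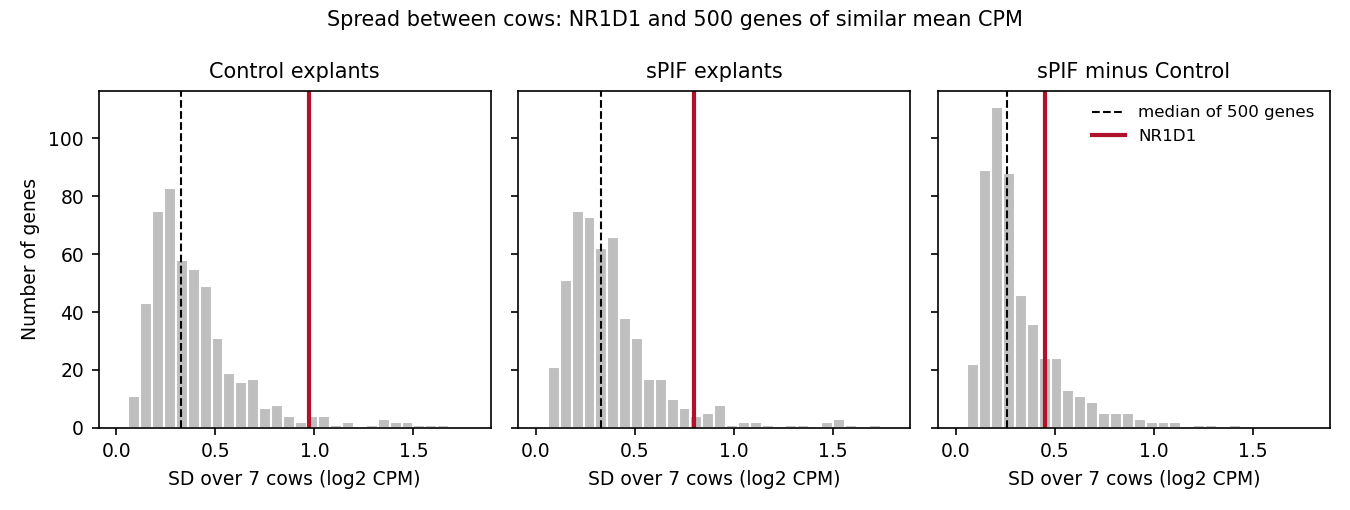
SD over 7 cows of log2 CPM for the 500 genes with mean CPM nearest to NR1D1 (grey bars, number of genes), in Control explants, in sPIF explants and for the within-cow difference. The dashed line is the median of the 500 genes and the red line is NR1D1, at 0.97, 0.80 and 0.45 against medians of 0.33, 0.33 and 0.26.

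Over the 14 libraries, sPIF took up 21.4% of the sum of squares of NR1D1, a share that the choice of the gene on that contrast raises and from which nothing is read. Cow took up 73.5% of the whole, against a median of 78.6% for the 500 genes of similar mean (40.4% of them smaller), and 93.6% against 82.2% (84.0% smaller) with the mean of each treatment removed. The choice of the gene bears on both, since a large sPIF share lowers the former and a small residual of the paired test raises the latter, so nothing is read from the cow share of NR1D1. Lane, which is part of the cow share, took up 47.4% of the whole, against a median of 33.4% (61.8% smaller), and 60.3% against 37.0% (71.6% smaller) with treatment means removed. Progesterone group took up 1.35% of the whole, against a median of 8.82% (17.2% smaller), and 1.72% against 9.44% (18.8% smaller) with treatment means removed. The lane and progesterone shares are taken of the same totals as the cow share. The choice of the gene therefore bears on them too, and nothing is read from their place among the 500 genes.

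The other clock genes could not be followed, because the count table lists identifiers and the gene tables used here pair few of them with symbols. Of 87 genes listed for the clock, its regulators and outputs, NR1D1 corepressors, heme synthesis, reported targets and cell type markers, 2 could be matched, NR1D1 and NOCT. THRA and the markers of epithelium, stroma, endothelium, leukocytes and smooth muscle were not matched, so the tissue label was not checked against the listed markers. NOCT (ENSBTAG00000005998) encodes nocturnin, a phosphatase of nicotinamide dinucleotides whose transcript is rhythmic in many tissues. The study selected it on the same contrast, so its sPIF values too are a description, from which nothing is read.

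NOCT stood at 25.8 ± 7.08 CPM (SD, n = 7) in Control and 19.5 ± 5.26 CPM (SD, n = 7) in sPIF explants. Its within-cow log2 differences ran from -0.66 in cow 2 to -0.08 in cow 1, all below 0. The log2 fold change was -0.40 (standard error 0.090). Unlike NR1D1, NOCT was not called between lanes, with a log2 difference of -0.05 (standard error 0.28, edgeR adjusted p = 0.910). The SD of its log2 CPM over Control explants was 0.42, against 0.97 for NR1D1. Cows 5 and 6, with the largest decreases in NR1D1, had NOCT differences of -0.47 and -0.26.

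Likeness of pattern was measured by Pearson's r of log2 CPM with NR1D1 over the 14 libraries, which share cows, lanes and treatments, so that r is a description. Among the 5 genes most alike, PPP1R15A (ENSBTAG00000001294), which directs a phosphatase to the translation factor eIF2 alpha under stress, had r = 0.97. NFKBIE (ENSBTAG00000013705), an inhibitor of NF-kappa B, had r = 0.96. The highest values, both r = 0.98, belonged to ENSBTAG00000003845 and ENSBTAG00000008573, for which no symbol was found. All 4 had higher mean CPM on lane 2, like NR1D1, for instance 619 against 353 for PPP1R15A and 112 against 62.6 for NFKBIE. Because they were picked by r over libraries of both lanes, nothing is read from this likeness. Within the 7 Control explants PPP1R15A had r = 0.99 and NFKBIE r = 0.93, and within the 7 sPIF explants 0.95 and 0.96.

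PPP1R15A ranged from 273 to 801 CPM in Control explants, with a median of 592, and from 268 to 567 CPM in sPIF explants, with a median of 403. It was lower with sPIF in 6 of 7 cows. NFKBIE ranged from 53.5 to 196 CPM in Control explants, with a median of 102, and from 40.7 to 120 CPM in sPIF explants, with a median of 58.3, and was lower in 7 of 7 cows. Lower values with sPIF are what the study selected both genes for, as it did NR1D1. Among the genes most opposite to NR1D1, ENSBTAG00000002843 and ENSBTAG00000013535 had r = -0.92 each. They stood at 9.03 and 26.8 CPM on lane 1 and 5.69 and 18.7 CPM on lane 2, and the choice by r bears on this difference too. In all, 59 of 13232 genes had r above 0.9 in size.

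Over the 7 within-cow differences, the genes most like NR1D1 were ENSBTAG00000011419 and ENSBTAG00000015904, both with r = 0.99, and the most opposite were ENSBTAG00000018579 and ENSBTAG00000018406, both with r = -0.99. With 7 points, 238 of 13232 genes had r above 0.9 in size, so that values of this kind are common. None of the 5 most alike or the 5 most opposite genes in the differences carried a symbol. PPP1R15A and NFKBIE had r = 0.80 and r = 0.74 over the differences.

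Named genes of several cell types are on the study's list, and were picked here after their values were seen, to be set beside NR1D1. The study selected each of them on the sPIF contrast, so their directions are not evidence, and its methods state that the muscle layer was cut away before culture. CNN1, the calponin of smooth muscle, stood at 78.1 ± 46.8 CPM (SD, n = 7) in Control and 49.4 ± 34.2 CPM (SD, n = 7) in sPIF explants, with log2 differences from -1.36 in cow 3 to -0.17 in cow 2. Among other contractile genes, SMTN (smoothelin) had log2 differences from -0.99 in cow 3 to -0.09 in cow 6, and TPM2, a tropomyosin, from -0.78 in cow 6 to -0.15 in cow 7.

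Of the adhesion molecules of endothelium, SELP had log2 differences from -3.88 in cow 2 to -0.08 in cow 1, and VCAM1 from -2.38 in cow 6 to 0.38 in cow 1. Of genes of connective tissue cells, FMOD (fibromodulin) had log2 differences from -2.13 in cow 6 to 0.47 in cow 1, and TWIST1 from -1.47 in cow 6 to -0.05 in cow 7. SLC34A2, a phosphate transporter of epithelia, went the opposite way to NR1D1, higher with sPIF in 6 of 7 cows, with log2 differences from -0.27 in cow 5 to 2.46 in cow 3. The part of tissue composition in the NR1D1 values was not tested.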

How the data were processed

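The authors trimmed paired-end reads (Trimmomatic 0.36.0), mapped them with Bowtie2 2.2.6 to the UMD 3.1 assembly and counted them per Ensembl gene with featureCounts 1.4.6. The deposited values are raw counts in 14 columns, all matched to a library by sample number. The row of column totals was left out.

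The filter kept genes with 10 counts or more in each library, and the tests used edgeR 4.0.16 in R 4.3.3 (TMM, quasi-likelihood, Benjamini-Hochberg, threshold 0.1), with cow as a block or, for lane and progesterone, on counts summed per cow. DESeq2 1.42.0 was an alternative, as were other normalizations and filters, each cow left out, and each lane or treatment alone. Log2 CPM used a prior count of 2. Both explants of a cow carry 1 number in the labels, and their deviations from group means correlated at 0.412 to 0.764 across genes in each cow. Explants of different cows were not correlated in this way, so the range does not test the pairing.

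The genes named are NR1D1, the matched members of the gene lists, and the 5 genes of highest and lowest r, with at most 2 identifiers per direction where no symbol was known. Genes of several cell types on the study's list, picked after their values were seen, are named as well. NR1D1 and the lists were chosen with earlier results of these data known. Symbols came from the study's gene list. Lane and progesterone group came from the paper.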

Additional observations from a re-analysis of the deposited data

Results flagged for a closer look

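The SD over genes of the log2 difference between both explants was 0.76 in cow 3, against 0.35 to 0.51 in the remaining cows. The gap from cow 3 to the nearest cow was 0.605 of the whole range, past Dixon's 95% limit for 7 values. Of 13 groups of values examined in this way, 1 passed, where chance would give 0.65. The groups of NR1D1 values, by treatment, lane 1 and high progesterone, and those of NOCT did not pass. Without cow 3, NR1D1 had a log2 difference of 1.26 between lanes (edgeR adjusted p = 0.0508, with 5198 of 13431 genes called). Its difference between progesterone groups was then -0.21, and the interactions of sPIF were -0.56 with lane and -0.09 with progesterone. The cause was not tested.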

How the results depend on the processing

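NR1D1 was lower with sPIF under all 15 alternatives, with a log2 fold change of -0.95 to -0.76 when 1 cow was left out and -0.92 with no replicate block, where the pairing by cow was dropped. Without the block 0 genes were called, as with it, and 200 had an unadjusted p under 0.05. The lane difference was positive and past the threshold under all 15 alternatives, at 1.03 to 1.52 when 1 cow was left out. Many other genes passed as well, from 3697 of 13286 without cow 6 to 5198 of 13431 without cow 3. Passing thus does not set NR1D1 apart. The interaction of sPIF with lane was negative under all 13 alternatives and past the threshold under 0. The progesterone difference turned to 0.44 with lane as a term, an alternative added after seeing the data, and ran from -0.71 to 0.24 when 1 cow was left out. The interaction of sPIF with progesterone ran from -0.41 to 0.086, being 0.086 without cow 5 and 0.063 without cow 7. DESeq2 called 100 genes for sPIF against Control, where edgeR called 0 genes under the other 14 alternatives, and the cause was not tested. The count of clock genes called, for which NOCT alone was matched and NR1D1 was left out, was 1 by DESeq2 and 0 by edgeR, and nothing is read from it because the study selected NOCT on this contrast. The SD of NR1D1 in Control explants was 0.59 within lanes, since the lane difference is then removed. Leaving out 1 cow gave 0.88 to 1.06 in Control explants, 0.58 to 0.88 in sPIF explants and 0.38 to 0.49 for the difference. Scaling by total counts without TMM, also added after seeing the data, changed no direction. With 207 to 1477 counts of NR1D1 per library, depth limits a single value by a counting SD of 0.038 to 0.10 on the log2 scale.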
